A study of Mus musculus with 6 samples.

Results

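The loci were those of the writers and erasers of cytosine methylation. They held the methyltransferase genes Dnmt1, Dnmt3a and Dnmt3b, the cofactor genes Uhrf1 and Dnmt3l, and Tet1, Tet2 and Tet3. They were represented by 136 of the 359192 windows for which CpG methylation was given. The members were all windows that overlapped a fixed GRCm38 interval around each gene, so no window was taken by its methylation value. The genes themselves were chosen with earlier results of these data known. Windows were defined by a number of CpG cytosines rather than by length, and the members hold 48 to 73 CpG dinucleotides (median 51) over a median length of 4036 bp. The intervals held 19 windows at Dnmt1, 9 at Uhrf1, 28 at Dnmt3a, 12 at Dnmt3b, 9 at Dnmt3l, 19 at Tet1, 15 at Tet2 and 25 at Tet3.

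DNMT1 is the maintenance methyltransferase, which copies methylation onto newly replicated DNA, and UHRF1 brings it to hemimethylated sites. DNMT3A and DNMT3B set methylation de novo, with the catalytically inactive DNMT3L as a cofactor in embryonic stem cells and germ cells, and the TET dioxygenases TET1, TET2 and TET3 oxidise 5-methylcytosine to 5-hydroxymethylcytosine and further forms. Promoters rich in CpG are usually free of methylation, whereas the bodies of genes are usually methylated.

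Both groups were the mESC line E14TG2a, of strain 129/Ola and unmodified in the labels, grown on gelatin in serum and LIF. All cells were pulsed with EdU, fixed, stained for EdU and DNA content, and separated by FACS into G1 and G2/M populations, with 3 EM-seq libraries of each. EM-seq protects 5-methylcytosine and 5-hydroxymethylcytosine from deamination, so both are read as methylated and the product of the TET enzymes cannot be told apart from their substrate. The percentages came without read counts, so the depth behind each value is unknown. The comparison asks whether methylation at these genes differs between cells before and after replication of the genome. It says nothing of how strongly the genes are expressed.

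The start-site windows of the stem cell genes Nanog and Pou5f1 had mean levels of 13.9% and 55.0% over the 6 libraries, and the 4 windows of Esrrb 31.2%. The fibroblast genes Col1a1 and Thy1 had 64.6% and 34.7%, and no window spanned a start of Zfp42 or Twist1. The levels of the stem cell and fibroblast genes therefore overlapped and did not by themselves identify the cells. Replicate 3 was the most methylated library of either phase over the whole table, by a mean of 7.34 percentage points above the other libraries, and over the members by 6.45. The values of the 6 libraries across the 136 windows correlated with Pearson coefficients of 0.852 to 0.939, a description over windows that neighbour each other.

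The members were less methylated than the table as a whole. G1 replicates 1, 2 and 3 averaged 53.0%, 49.1% and 57.1% over the members, and the G2/M libraries 52.3%, 50.6% and 58.3%, where the means over all windows ran from 60.1% to 69.2%. Levels under 20% were found in 17 windows, or 12.5% of the members and 3.50% of the table. Levels of at least 50% were found in 91 windows, or 66.9% of the members and 87.6% of the table. Of the 17 low windows, 5 spanned a coding start of the member gene, 11 lay elsewhere in the gene and 1 lay in a flank, over the start of the neighbouring gene Icosl.

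The loci differed in the mean level of the windows given for them. The lowest locus was Tet1, with 38.5%, 35.3% and 40.8% in G1 against 39.1%, 35.5% and 43.5% in G2/M. Dnmt3l had 44.7%, 33.1% and 40.9% in G1 against 42.3%, 37.4% and 40.7% in G2/M. Tet2 had 40.7%, 40.3% and 45.0% in G1 against 40.1%, 39.2% and 46.8% in G2/M. These 3 loci overlapped in their library values. Uhrf1 followed with 46.5%, 44.0% and 47.2% in G1 against 43.0%, 44.2% and 49.2% in G2/M. Dnmt3a had 56.5%, 52.0% and 60.9% in G1 against 54.4%, 57.4% and 63.6% in G2/M. Dnmt1 had 56.9%, 52.4% and 63.8% in G1 against 57.7%, 56.1% and 62.4% in G2/M. Every library thus had its values for the methyltransferases Dnmt1 and Dnmt3a above its value for Uhrf1. Dnmt3b had 60.4%, 53.6% and 64.6% in G1 against 59.6%, 56.6% and 65.1% in G2/M. Tet3 was the highest locus, with 66.2%, 64.7% and 73.1% in G1 against 66.7%, 61.3% and 73.7% in G2/M.

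**Figure D1:**
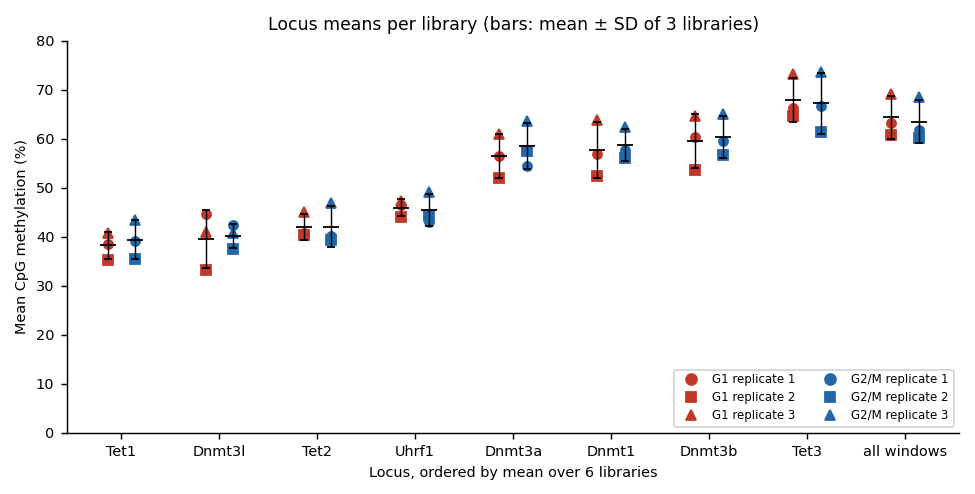
Mean CpG methylation (%) over the windows of each locus, and over all windows of the table, for each library (G1 red, G2/M blue, one symbol per replicate number), with black bars for the mean ± SD of 3 libraries. Tet1, Dnmt3l, Tet2 and Uhrf1 lie below 50% in every library and the other loci above it, and the red and blue symbols overlap at every locus.

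Taken within a library, the step from Uhrf1 to Dnmt3a was 11.8 ± 2.49 percentage points (mean ± SD of 6 libraries) and that from Dnmt3b to Tet3 was 7.63 ± 2.26. The step from Tet2 to Uhrf1 was 3.67 ± 1.45 and that from Dnmt1 to Dnmt3b 1.75 ± 1.15. Each of these had the same sign in 6 of 6 libraries. The other neighbours did not differ beyond their spread between libraries. Dnmt3l exceeded Tet1 by 1.08 ± 3.38, Tet2 exceeded Dnmt3l by 2.17 ± 4.48 and Dnmt1 exceeded Dnmt3a by 0.759 ± 1.96 percentage points, each in 4 of 6 libraries. The loci were ordered by these same libraries, so the steps are a description. Windows within a locus spread more widely, with an SD from 15.9 at Dnmt1 to 27.5 at Tet2. The SDs between libraries do not measure that spread. The excess of replicate 3 was not the same at all loci, being 1.42 percentage points at Dnmt3l, 3.79 at Uhrf1, 5.04 at Tet1 and 8.70 at Tet3.

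The gene bodies were ordered much as the loci. A gene-body window overlaps the gene but no start of a protein-coding transcript of that gene. The mean over such windows, taken over the whole annotated gene, was ranked among 9165 genes with at least 5 of them. Only 1.98% of genes had a lower body than Tet1 and 3.56% a lower body than Tet2. The share was 10.9% for Uhrf1, 25.6% for Dnmt3a, 32.3% for Dnmt1 and 52.2% for Dnmt3b. Tet3 stood apart from the other TET genes, with 64.7% of genes below it. Dnmt3l, placed with 4 gene-body windows, had 9.56% of genes below it.

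**Figure D2:**
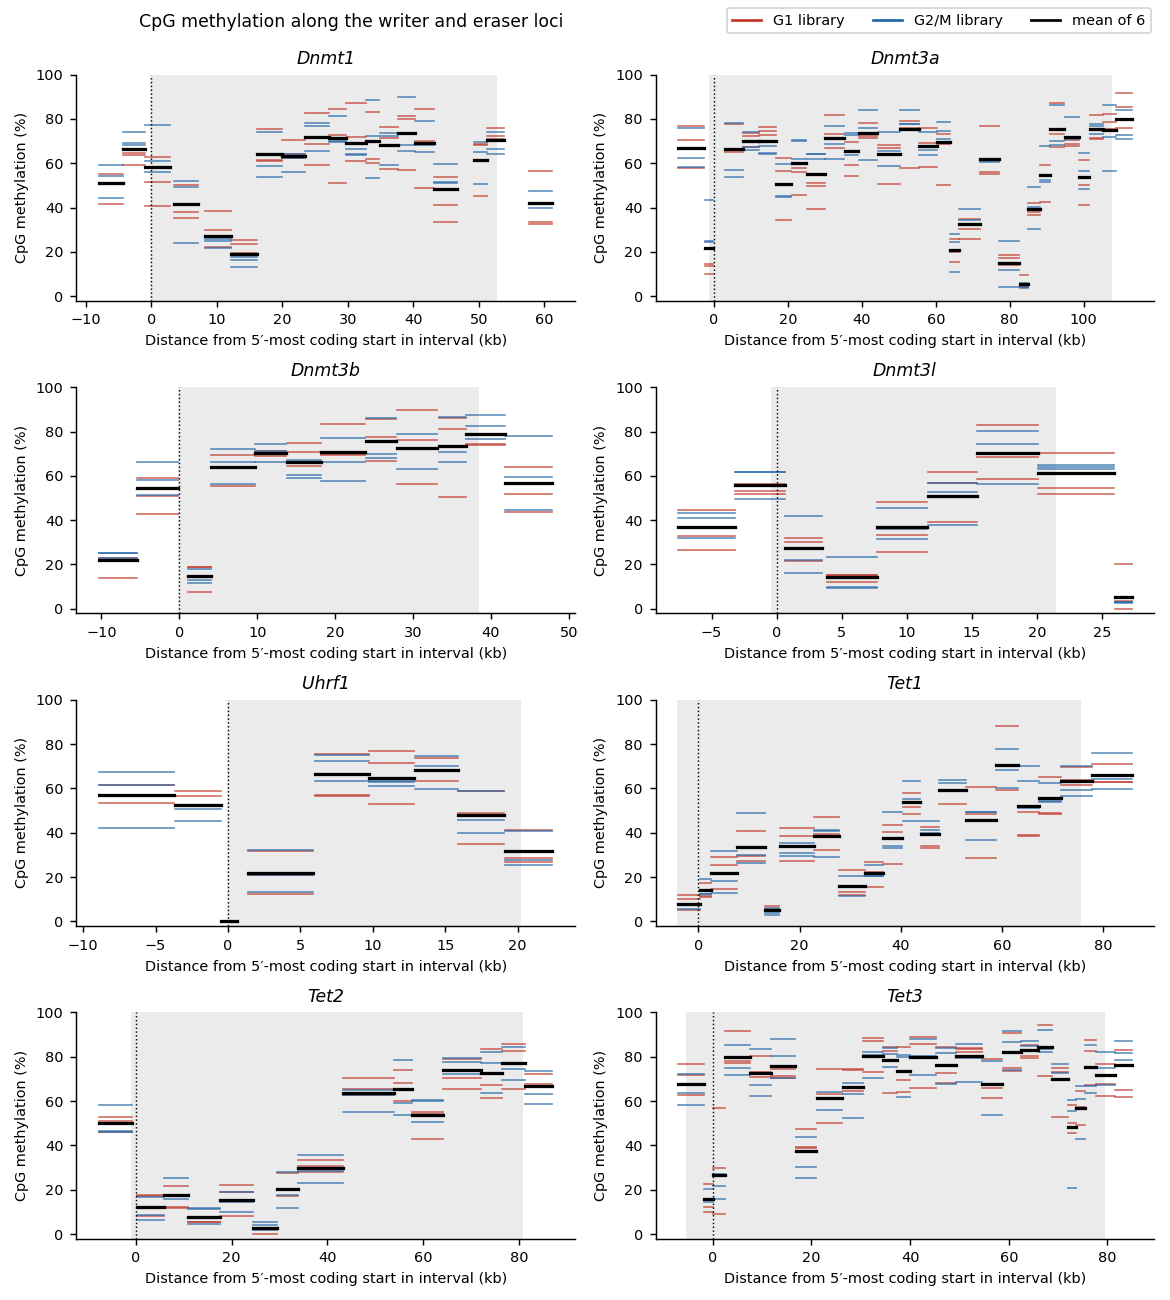
CpG methylation (%) of each window along the 8 loci against the distance in kb from the start of the most upstream protein-coding transcript inside the interval (dotted line), in the direction of transcription. Thin lines are the G1 (red) and G2/M (blue) libraries, thick black lines the mean of 6 libraries, and the grey area is the annotated gene. Tet2 shows a stretch of low windows of 33.6 kb after its start, Dnmt3a a dip at an internal start, and Uhrf1 a window at 0.

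The windows at transcription starts differed widely between the loci. The 200 bases before 4 of these starts are shown, read from the GRCm38.p6 genome 5′ to 3′ on the strand of the gene. They were picked among the starts whose 200 bases overlap no annotated exon. The picks run from a window listed at 0 to the most methylated start-site window. Capitals mark CpG, the only dinucleotide counted (CG, which reads the same on both strands).
Uhrf1, chr17:56303121-56303320 (+): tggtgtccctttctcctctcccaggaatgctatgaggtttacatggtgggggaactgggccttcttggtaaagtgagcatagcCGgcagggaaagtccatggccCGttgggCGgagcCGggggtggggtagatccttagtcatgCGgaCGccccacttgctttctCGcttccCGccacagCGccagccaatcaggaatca
Dnmt3a internal start, chr12:3891528-3891727 (+): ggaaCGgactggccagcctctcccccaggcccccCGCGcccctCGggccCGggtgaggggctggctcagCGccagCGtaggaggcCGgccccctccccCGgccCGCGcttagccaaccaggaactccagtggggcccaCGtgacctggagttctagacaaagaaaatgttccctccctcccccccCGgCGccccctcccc
Dnmt3l, chr10:78049642-78049841 (+): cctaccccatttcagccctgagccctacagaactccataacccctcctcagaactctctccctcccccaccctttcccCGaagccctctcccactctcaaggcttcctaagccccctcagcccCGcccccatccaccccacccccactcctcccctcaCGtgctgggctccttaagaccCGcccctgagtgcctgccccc
Dnmt1 upstream start, chr9:20959889-20960088 (-): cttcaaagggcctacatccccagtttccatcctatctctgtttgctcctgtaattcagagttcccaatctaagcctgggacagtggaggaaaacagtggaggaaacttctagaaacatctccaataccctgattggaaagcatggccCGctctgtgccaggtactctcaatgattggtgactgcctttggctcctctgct
The Uhrf1 sequence holds 9 CpGs, that of Dnmt3a 14, that of Dnmt3l 4 and that of Dnmt1 1. A CpG occurs in 89.4% of the 32851 RefSeq promoters over the same 200 bases, with a median of 5. Of those promoters, 63.2% have fewer than Uhrf1, 75.2% fewer than Dnmt3a, 42.9% fewer than Dnmt3l and 10.6% fewer than Dnmt1. The start of Dnmt1-201 and the downstream start of Dnmt3l also have 200 bases free of exons and are not shown. Those sequences hold 7 and 3 CpGs, and their windows had means of 41.4% and 50.9%.

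Among the maintenance genes, the Uhrf1 window chr17:56302865-56303947 over the start of transcripts Uhrf1-201 and Uhrf1-203 was listed at 0 in all 6 libraries. Without read counts, no upper limit can be set on a listed 0. It was the shortest and most CpG-dense member, with 50.8 CpGs per kb, and 1368 windows of the table were listed at 0 in every library. The starts of Uhrf1-202 and Uhrf1-204 fell in the adjoining chr17:56303948-56304732, a stretch of 785 bases with 64 CpGs and no window. The window after that stretch, chr17:56304733-56309206, had a mean of 21.9%, and the window before, over the start of the neighbouring gene Arrdc5, had 52.6%. The highest Uhrf1 window, chr17:56316248-56319185 in the gene body, had a mean of 68.3%.

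No window over a Dnmt1 start was as low, but not every Dnmt1 start had a window. The window chr9:20957109-20960871 over the most upstream start, that of Dnmt1-202, had 40.8%, 51.7% and 62.6% in G1 against 55.9%, 77.4% and 61.0% in G2/M. The window chr9:20952779-20956467 over the start of Dnmt1-201 had 35.1%, 38.2% and 50.0% in G1 against 24.0%, 49.1% and 51.8% in G2/M. These values spread widely between libraries, and the groups overlapped. The start of Dnmt1-201 lies near the edge of its window, most of which is upstream of that start. Further starts, of Dnmt1-203 and Dnmt1-207, fell in the adjoining stretch of 1140 bases with 56 CpGs, chr9:20951639-20952778, for which no window was given. The level at these starts is therefore unknown. The lowest windows of Dnmt1 lay in introns just downstream. These were chr9:20947745-20951638 with a mean of 27.2% and chr9:20943701-20947744 with 19.2%. The highest was chr9:20919711-20922218, with a mean of 73.7%.

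Among the de novo genes, Dnmt3a was lowest at an internal start. Its window chr12:3889853-3892101, over the start of Dnmt3a-203 and Dnmt3a-205, had 4.26%, 4.65% and 9.46% in G1 against 4.08%, 6.06% and 3.70% in G2/M. The shorter DNMT3A isoform made from an internal promoter is known as the main one in embryonic stem cells. The preceding window, chr12:3884153-3889657, lay in an intron and had a mean of 15.1%. The pair stood out from windows on either side at 62.0% and 39.3%. Another low window, chr12:3870950-3873397, held 160 exonic bases and had a mean of 20.7%. The upstream start of Dnmt3a, of Dnmt3a-201 and Dnmt3a-218, fell in chr12:3806718-3810073, a stretch of 3356 bases with 262 CpGs and no window. The highest Dnmt3a window was chr12:3915921-3920062 in the downstream flank, with a mean of 80.1%.

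All coding starts of Dnmt3b likewise fell in a stretch without a window, chr2:153649353-153650508, which has 110 CpGs in 1156 bases. The window just upstream, chr2:153644013-153649352, had a mean of 54.7%. The window just downstream, chr2:153650509-153653499, had 7.62%, 18.8% and 18.9% in G1 against 17.8%, 12.9% and 11.7% in G2/M, the lowest of the locus. The next window rose to a mean of 63.9%, and the highest, chr2:153686304-153691192, had 78.9%. The last window reached the start of the neighbouring gene Dnmt3c, a germ cell methyltransferase that arose as a copy of Dnmt3b, and had a mean of 56.9%. Whether reads were shared between these copies was not tested.

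The cofactor gene Dnmt3l had windows over 3 sets of starts, and they differed in level. The window chr10:78046172-78050007, over the start of Dnmt3l-201 and Dnmt3l-208, had 15.2%, 12.2% and 15.4% in G1 against 9.22%, 23.4% and 9.83% in G2/M. The window chr10:78039112-78042943, over the upstream start of Dnmt3l-205, had a mean of 55.7%, and chr10:78053930-78057700, over the downstream starts of Dnmt3l-202, Dnmt3l-203 and Dnmt3l-206, had 50.9%. The lowest value of these was 49.7% upstream and 38.0% downstream, both above the highest of the window between them. The window with a mean of 27.3% between the upstream and middle starts overlaps starts of Aire, the gene of a regulator of immune tolerance in the thymus. The lowest window of the locus was chr10:78068228-78069548 in the flank, that over the start of Icosl, which encodes a T-cell co-stimulatory ligand. It had 20.3%, 3.51% and 0% in G1 against 2.50%, 3.03% and 3.13% in G2/M, so 1 library lay apart from the others. The highest, chr10:78057701-78062338, had a mean of 70.1%.

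Among the erasers, Tet2 carried the longest run of low windows inside the intervals. In 6 successive windows from chr3:133510602 to 133544179, a span of 33.6 kb, the mean was 11.3%, 13.4% and 13.1% in G1 against 11.99%, 12.5% and 14.0% in G2/M. Single windows had means from 2.79% to 20.5%, the lowest being chr3:133514900-133519974, which holds no annotated exon. The run began directly after a stretch of 1032 bases with 117 CpGs, chr3:133544180-133545211, which holds both coding starts of Tet2 and has no window. Upstream of it the level was 50.2%, and on the far side 29.9% and then 63.5%. The highest Tet2 window was chr3:133463162-133467880, with a mean of 77.1%. Runs of at least 2 successive windows under 25% numbered 3366 over the whole table, with a median of 2 windows and a longest of 16, and 66 of them (1.96%) had at least 6.

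Tet1 was low over several separate windows. Its start-site window, chr10:62879781-62884023 over the start of Tet1-201, had 11.8%, 10.0% and 5.26% in G1 against 7.75%, 5.46% and 7.27% in G2/M. Together with the 2 windows that follow, one of which holds 1629 exonic bases, it formed a run of 11.6 kb at a mean of 14.6%. This run was cut by the end of the interval. The next window outside had a mean of 0%, so the full length of the run was not measured. A second run, chr10:62843507-62852187 in an intron, had 18.9%. Inside the interval, the lowest window was chr10:62864092-62866900, at 5.05% and between 3.13% and 7.02% in every library. The highest Tet1 window was chr10:62816891-62821287, with 70.7%. The interval ended short of the most upstream start of Tet1, that of Tet1-206, whose window outside the interval had a mean of 3.49%.

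Tet3 was low only close to its start. The window chr6:83441543-83443522, over the start of Tet3-202, had 12.1%, 22.7% and 9.80% in G1 against 15.6%, 20.5% and 14.6% in G2/M. The following window, chr6:83439309-83441542, had 9.09%, 56.9% and 29.7% in G1 against 16.0%, 21.7% and 27.2% in G2/M, the widest spread of any member with an SD of 16.6. One G1 library was far above the others there. Of the 25 windows of Tet3, 21 had a mean of at least 50%, and the highest window of all members was chr6:83372866-83375799, with a mean of 84.6%. The upstream start of Tet3, that of Tet3-203, lay outside the interval and was not used here.

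**Figure D3:**
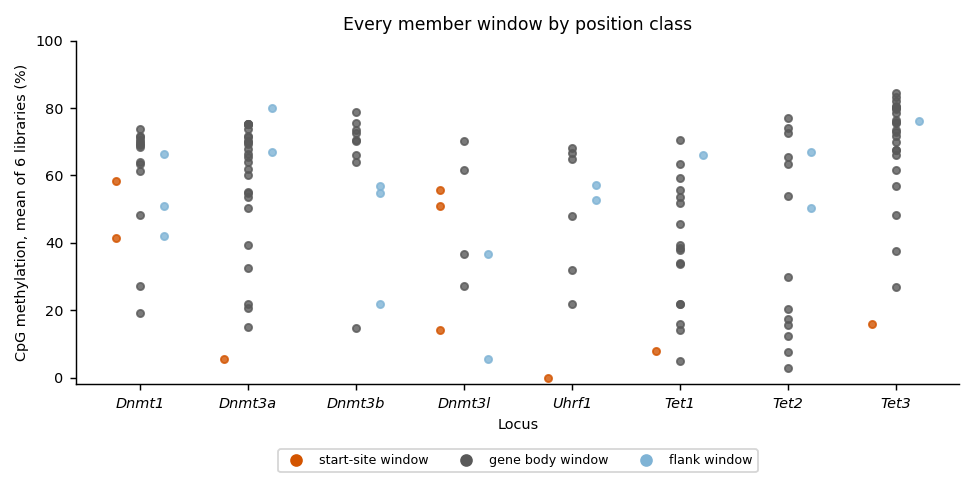
Mean CpG methylation (%) over 6 libraries of each of the 136 windows, by locus, with start-site windows in orange, gene-body windows in grey and flank windows in blue. The start-site windows of Uhrf1, Dnmt3a, Tet1 and Tet3 lie under 20%, those of Dnmt1 and most of Dnmt3l do not, and gene-body windows under 20% occur in 5 loci, most of them in Tet2 and Tet1.

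Over all loci, the 9 start-site windows had means of 25.3%, 26.1% and 29.7% in G1 against 24.0%, 32.1% and 29.2% in G2/M. The 111 gene-body windows had 55.3%, 50.9% and 59.5% in G1 against 54.8%, 52.0% and 60.5% in G2/M. The 2 classes differed by 27.8 percentage points and the start-site mean was the lower in 6 of 6 libraries. In the whole table the means were 42.9% for start-site windows and 64.2% for gene-body windows. There, a start of any coding gene made a start-site window, so the classes are not quite the same. Among the members, the Dnmt3l window over starts of Aire counts as gene body. Of the 24 coding starts inside the intervals, 12 (50%) lay in a window, whereas 73.0% of the 41469 coding starts of all genes did. The start-site level of the members thus leaves out the CpG-dense starts named above.

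Short windows are CpG-dense, and a low level is more usual in them. Windows shorter than 4125 bp were under 20% in 13.0% of the table and in 12.2% of the 74 members of that length. From 4125 to 5817 bp, the shares were 0.77% of the table and 12.8% of the 47 members. From 5817 to 8718 bp, they were 0.215% and 15.4% of 13 members. The longer low windows, with fewer CpGs per kb, were those of Tet2, Tet1 and Dnmt3a already named. Neighbouring windows of a gene are not independent, so these shares are a description.

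**Figure D4:**
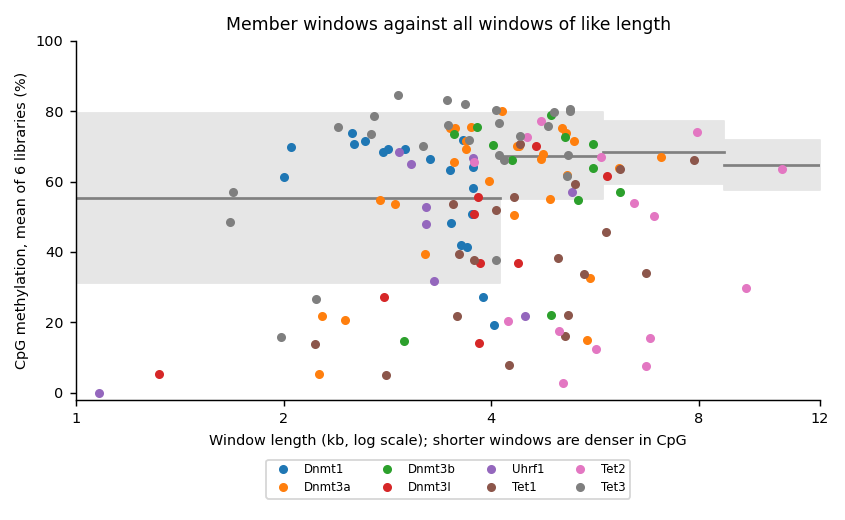
Mean CpG methylation (%) over 6 libraries of each member window against its length in kb on a log axis, coloured by locus. Grey lines and areas give the mean ± SD over all windows of the table in each of 4 classes of window length. The members over 4125 bp long and under 20% belong to Tet2, Tet1 and Dnmt3a and lie well under the grey areas.

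Between the phases, no locus differed by more than the spread between replicates, a spread that holds the higher level of replicate 3 in both phases. Paired by replicate number, G1 minus G2/M at Tet1 was -0.592, -0.159 and -2.68 percentage points, below 0 in every pair. Each of the other loci had differences of both signs. The members averaged 53.1% ± 4.00 over the G1 libraries against 53.7% ± 4.04 over the G2/M libraries (SD, n = 3 each), a G1 minus G2/M difference of -0.675 percentage points, where the mean over all windows had 0.872. G1 had the higher mean in 64 of the 136 windows (47.1%; background 57.1% of all windows). The largest locus difference was that of Dnmt3a, with 56.5% ± 4.48 in G1 and 58.5% ± 4.68 in G2/M (difference -2.03, two-sided exact permutation test, p = 0.6). Tet1 had -1.14 (p = 0.7), Dnmt1 -1.04, Dnmt3b -0.877, Dnmt3l -0.605 and Uhrf1 0.468 (p = 0.9 for each of these 4, exact permutation tests). Tet3 had 0.756 and Tet2 -0.0462, both with p = 1 in the exact permutation test. With 3 libraries against 3 such a test cannot go below 0.1, and it was run for 8 loci. The start-site windows, compared in the same way, differed by -6.82 percentage points at Dnmt1 (p = 0.4), 1.51 at Dnmt3a (p = 0.5), -0.145 at Dnmt3l (p = 0.8), 2.18 at Tet1 (p = 0.4) and -1.98 at Tet3 (p = 0.6, exact permutation tests).

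Window by window, none of the 136 members had an adjusted p under 0.05 in limma, with Benjamini-Hochberg adjustment over all windows (background 0.00223%). At an unadjusted p under 0.05, 4 members were lower in G1 (2.94%; background 0.75%) and 0 were higher in G1 (background 1.36%). Of the 4, 3 lie in Dnmt3a and 1 in Tet1. The Dnmt3a windows chr12:3828001-3831973 and chr12:3832143-3836999 neighbour each other and are not independent. With the replicate number as a block, 7 were lower in G1 (background 1.74%), 2 were higher (background 3.09%) and again 0 passed after adjustment. The G1 values all lay below the G2/M values in 7 windows (5.15%; background 1.98%), 4 of them in Dnmt3a, and all above in 2 (1.47%; background 4.12%). Paired by replicate number, the 3 differences were all above 0 in 14 windows (background 16.3%) and all below 0 in 18 (background 9.74%). The members' differences ran from -19.3 to 10.3 percentage points, with a median of -0.269 against 0.923 over all windows.

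The windows that stood furthest apart between phases are given with all their values. The Dnmt3a window chr12:3804446-3806717, just upstream of the CpG-dense coding start, had 13.8%, 14.6% and 10.0% in G1 against 24.4%, 25.03% and 43.2% in G2/M. The groups did not overlap, and the difference was -18.1 percentage points, or -1.52 ± 0.41 (SE) in the log2 ratio of methylated to unmethylated (limma, unadjusted p = 0.00479, adjusted p = 1). The Dnmt3a window chr12:3832143-3836999, with 234 exonic bases, had 51.0%, 39.5% and 49.5% in G1 against 64.1%, 61.8% and 64.3% in G2/M, a difference of -16.7 (limma, unadjusted p = 0.0194, adjusted p = 1). The Tet1 window chr10:62812818-62816890, with 1070 exonic bases, had 49.3%, 38.6% and 39.0% in G1 against 63.4%, 51.1% and 70.2% in G2/M. Its difference of -19.3 was the largest of any member (limma, unadjusted p = 0.0220, adjusted p = 1). All 3 have G1 libraries wholly below the G2/M libraries. So has the remaining window under 0.05, the intronic Dnmt3a window chr12:3828001-3831973, with 45.8%, 56.1% and 57.7% in G1 against 69.9%, 61.7% and 70.6% in G2/M (difference -14.2, limma, unadjusted p = 0.0397, adjusted p = 1).

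In the opposite direction the smallest p-values did not reach 0.05 without the replicate block. The intronic Dnmt3a window chr12:3819307-3823669 had 72.5%, 74.4% and 76.5% in G1 against 64.7%, 64.4% and 67.5% in G2/M (difference 8.92, limma, unadjusted p = 0.0690, adjusted p = 1). The low intronic Dnmt1 window chr9:20943701-20947744 had 25.4%, 19.3% and 23.6% in G1 against 17.5%, 16.1% and 13.1% in G2/M (difference 7.16, limma, unadjusted p = 0.0694, adjusted p = 1). The Tet3 window chr6:83411192-83415357 had 74.0%, 64.8% and 74.5% in G1 against 63.2%, 52.3% and 68.3% in G2/M (difference 9.81, limma, unadjusted p = 0.128, adjusted p = 1). The Dnmt3a and Dnmt1 windows did not overlap between the phases, and that of Tet3 did. With the replicate block, the unadjusted limma p was 0.0427 for the Dnmt3a window, 0.0460 for that of Tet3 and 0.0828 for that of Dnmt1. The lowest adjusted p of any member under any alternative was 0.894.

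**Figure D5:**
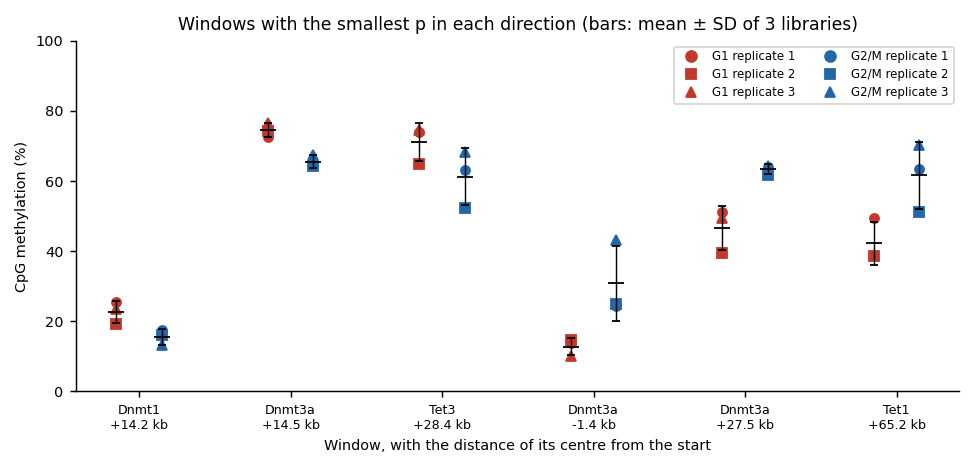
CpG methylation (%) in each library of the 3 windows with the smallest unadjusted limma p among those higher in G1 (left) and of the 3 among those lower in G1 (right), named by gene and distance of the window centre from the start. Black bars are the mean ± SD of 3 libraries, and the Dnmt3a window at -1.4 kb has every G1 library at or under 14.6% and every G2/M library at or above 24.4%.

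Other genes of the same pathway were taken as a list of 28, comprising readers of methylation, cofactors, glycosylases and genes of the methyl donor cycle. All but the imprint-protecting factor Zfp57 had windows, 230 in all, with a mean of 47.7%. Of these windows 0 passed after adjustment in limma, 5 were higher in G1 (background 1.36%) and 2 were lower (background 0.75%) at an unadjusted p under 0.05. In 19 genes a window spanned a coding start, with a level under 20% in 5, from 20% to 50% in 13 and of at least 50% in 1. The median gene-body level was 54.4%, from 2.52% at Gadd45b, a stress-response gene linked to demethylation, to 73.2% at Neil1, a DNA glycosylase, each of these with 1 gene-body window. Of the 26 gene bodies of the list, 9 were under 50%. The Tet1 and Tet2 gene bodies lie below that median and the Tet3 body above it.

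For likeness, start-site and gene-body levels in the 6 libraries gave 12 values a gene, and the root mean square difference was taken to each of 18 genes of the list. The nearest gene to Uhrf1 was Mbd4, a glycosylase that excises deaminated methylcytosine, at 3.41 percentage points. Dnmt3a was nearest to Ogt, which adds N-acetylglucosamine to proteins, at 5.48, and Tet3 to Idh1, an isocitrate dehydrogenase, at 5.69. Tet1 was also nearest to Mbd4, but less close, at 8.70. Dnmt3b and Tet2 have no start-site window and were not compared.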

How the data were processed

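EM-seq libraries of sorted G1 and G2/M mESCs, 3 each, were grouped by their labels. The deposited values are the percent CpG methylation of each window and library, which the authors computed in SeqMonk over 100-CpG windows with enough CpGs observed in all datasets. According to the submitters' processing notes, bcl2fastq 2.19.1, FastQC 0.11.7, MultiQC 1.7, Trim Galore 0.6.4, Bowtie2 and Bismark 0.22.1 were used with GRCm38/mm10. Duplicates and outlier regions had been removed. A window's percentage weights the CpGs that were read, and stretches without enough of them are missing. The deposited table holds percentages alone, so depth is unknown, no interval was computed and p-values measure the spread between libraries.

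The members and lists were chosen with earlier results of these data known. Windows overlapping an interval were taken whole. Start sites, exons and gene bodies came from GENCODE vM21 protein-coding basic transcripts, and sequences from the GRCm38.p6 genome, with promoter CpG counts from RefSeq. Locus means were unweighted means over windows, compared by two-sided exact permutation tests. All windows were fitted with limma 3.58.1 in R 4.3.3 (lmFit, eBayes with a trend) on log2((percent + 1)/(100 - percent + 1)), with Benjamini-Hochberg adjustment over the table and a threshold of 0.05. The fit was run on simulated data with independent noise for each window and library. That simulation held no level shared by a replicate, so it does not cover the higher level of replicate 3. Python 3.11.15, numpy 2.4.6, pandas 2.3.3, scipy 1.17.1 and matplotlib 3.10.9 were used.

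Windows named singly were, per locus, those at coding starts and those of lowest and highest mean, and over the members the 3 with the smallest p in each direction and the 3 with the largest difference. Neighbours of these, windows of a low run and windows at starts of other genes, and the remaining window under 0.05, were added after their values were seen. The alternatives covered the offset, the scale, the trend and a filter on level in the fit, centring of libraries on their medians, a replicate block, medians, weighting by length, the definition of a member or start-site window, and single libraries left out. The authors drew both phases from a dish, and same-numbered libraries share a number in the labels. Deviations from group means correlated at 0.0274, 0.0310 and 0.0549 for same-numbered libraries and at -0.0299 to -0.00144 for others over all windows, and at 0.0944, 0.230 and 0.115 against -0.184 to 0.0986 over the members. Not every pair was over 0.1 in either set, so the block was kept as an alternative. The paper, however, compared global methylation within matched replicates. A correlation across windows does not register a level shared by all windows of a library, such as the higher level of replicate 3. The tests without the block hold that level in their spread. The nearest genes of Dnmt1 and Dnmt3l by likeness are not reported here.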

Additional observations from a re-analysis of the deposited data

How the results depend on the processing

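No member window passed after adjustment under any alternative run. The 4 windows at an unadjusted limma p under 0.05 (7566 in the whole table) became 9 with the replicate block (17356 in the table). Of the 9, 2 were higher in G1. There were 5 with an offset of 5 or on percentages (1 higher in G1, against 7753 and 7946 in the table). After centring libraries on their medians there were 6 (0 higher in G1, against 17594 in the table). Without 1 library there were 3 to 7, against 5344 to 13499 in the table. The count was 7 where either G1 replicate 3 or G2/M replicate 2 was left out. Centring changed the table-wide counts from 4873 higher and 2693 lower in G1 to 7910 and 9684. The groups did not overlap in 9 windows (background 4.12% with G1 above and 1.98% with G1 below). Under the pairing by number, the 3 matched differences shared a sign in 32 windows (background 16.3% above 0 and 9.74% below 0). In exact sign-flip tests of locus means with the replicate block, which cannot go below 0.25, p ran from 0.25 (Tet1) to 1. The start-site to gene-body difference of 27.8 was 45.2 as a difference of medians, and 27.1 to 29.3 without 1 library.

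None of the signs of the locus differences was stable when single libraries were left out. A left-out library also leaves the replicate numbers unequal between the phases, and replicate 3 had the highest level in both. The ranges below therefore hold that difference in level as well. Paired by replicate number, only Tet1 had the same sign in every pair. Without 1 library, G1 minus G2/M ran from -4.10 to 1.64 at Dnmt1, -4.27 to 0.532 at Dnmt3a, -3.43 to 2.10 at Dnmt3b, -3.16 to 2.60 at Dnmt3l, -0.755 to 2.34 at Uhrf1, -3.08 to 0.921 at Tet1, -1.56 to 2.33 at Tet2 and -2.21 to 3.99 at Tet3, and over all members from -2.70 to 1.60. G1 replicate 2 and G2/M replicate 3 turned the sign at Dnmt1, Dnmt3a, Dnmt3b and Tet1 when left out. At the start sites it ran from -13.4 to -1.79 at Dnmt1 and 0.802 to 4.05 at Tet1, with no change of sign, and from -0.158 to 2.44 at Dnmt3a, -2.17 to 2.005 at Dnmt3l and -5.90 to 0.563 at Tet3. The sign also turned at Uhrf1 after centring (-0.605), at Tet3 with medians (-0.458), after centring (-0.317) or with windows of at least 50% (-0.168, chosen after seeing the data), at Tet2 with weighting by length (0.0817) or without windows listed at 0 (0.108), and at Dnmt3b with the window centre inside the interval (0.195). The cause was not tested. A coverage minimum was not run, since no coverage is given, and the depth behind single windows is unknown.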
